A study of Mus musculus with 8 samples.

Results

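A set of 7 genes needed to make, place or control the DNA double-strand breaks of meiosis were followed in mouse testis RNA: Spo11, Prdm9, Hormad1, Hormad2, Mei1, Mei4 and Trip13. They were picked by gene symbol, and all 7 have a row among the 23983 genes of the FPKM table. FPKM divides fragment counts by transcript length and by a size set for each library. The tissue was testis of untreated C57BL/6J mice, a single inbred strain with no mutation or transgene named, taken on day 12 (d12), d16 or d24 after birth or from adults. Each stage has 1 strand-specific library of total RNA, so the spread between animals is unknown and no p-value is printed. In the study these libraries served, with ChIP-seq, to find sites and promoters active in spermiogenesis for transgenes on the sex chromosomes. H3K27Ac ChIP-seq of the same 4 stages is not analysed here.

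In meiotic prophase, spermatocytes cut their own DNA on purpose so that homologous chromosomes can find each other, pair and recombine. SPO11 makes the cut, a group of accessory proteins on the chromosome axis allows it, and PRDM9 chooses where it happens by binding DNA and methylating nearby histones. HORMAD1 and HORMAD2 coat axes that have not yet synapsed, and TRIP13 strips them off once synapsis is made, which closes the window for further cuts. Most of this takes place in leptotene and zygotene cells, which appear in the testis before the pachytene cells and well before the spermatids.

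The tissue label was checked against marker genes, 6 for each cell type, given as summed FPKM of the d12, d16, d24 and adult libraries. Leptotene and zygotene markers summed to 745.4, 1132, 838 and 922.5, and pachytene markers to 59.8, 969.2, 4226 and 5111. The first sum is carried mostly by Sycp3. From d12 to d16 Smc1b and Meiob were also higher, at 174.5 and 215.9, and 15.5 and 30.8 FPKM. Stra8, Dmc1 and Rec8 were lower, at 86.4 and 49.2, 45.7 and 33.3, and 9.48 and 7.63 FPKM. The median log2 change of these 6 markers was -0.0013. Round spermatid markers summed to 3.16, 4.10, 435.9 and 1409, with 3 of 6 genes under 0.1 FPKM both at d12 and at d16, and elongating spermatid markers summed to 13.2, 4.45, 2363 and 26392. Spermatogonia markers summed to 213, 125.1, 69.9 and 50.5. Gfra1 went against this sum, from 1.2 FPKM at d12 to 2.42 in adult testis, while the other 5 were at least 2-fold lower. Sertoli cell markers summed to 879.3, 741, 500.3 and 517.2, and Leydig cell markers to 131.6, 82.4, 153.4 and 580.7. Clu carries most of the Sertoli sum, with 419.6 FPKM at d24 and 456.6 in the adult, while the other 5 Sertoli markers were all lower in the adult library, with a median log2 change of the 6 of -0.40. The levels of germ cell markers thus differed between all 4 libraries. In whole tissue, fewer cells of a type and less RNA per cell cannot be told apart. The part of the cell mixture in the changes below was not tested. Whole fragments behind the FPKM values were recovered from RefSeq transcript lengths, and intervals in parentheses are exact 95% intervals on these fragments, which cover counting error only. In the set, only Hormad2 and Trip13 have 1 curated transcript. For the other genes 1 length was taken: the mean or, where lengths differ by over 1.1 times, the shortest. Their fragments were rounded to whole numbers, so their counts and intervals are approximate. Fewest fragments on genes were recovered in the d12 library (8910942) and most in that of d24 (23690391), but 1 fragment is worth most FPKM in the adult library. On a 1 kb transcript, 3 fragments correspond to 0.137 FPKM at d24 and to 0.336 FPKM in adult testis, and no gene of the set came near this limit.

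The 7 genes did not share a time course. Prdm9, Mei1, Mei4 and Trip13 had their highest value at d12, Hormad1 and Hormad2 at d16, and Spo11 in adult testis. Of the 13901 genes averaging 1 FPKM or more over the libraries, a filter that all 7 genes passed, 35.3% were highest in the d12 library, 10.4% in that of d16, 18% in that of d24 and 36.3% in the adult one. FPKM is a level per transcript length, so the genes can be set side by side. Hormad1 stood far above the rest in every library, with a lowest value of 115.3 FPKM (d12) and a highest of 343.6 (d16), and Mei1 and Mei4 lay lowest, between 0.729 and 2.46 FPKM.

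**Figure D1:**
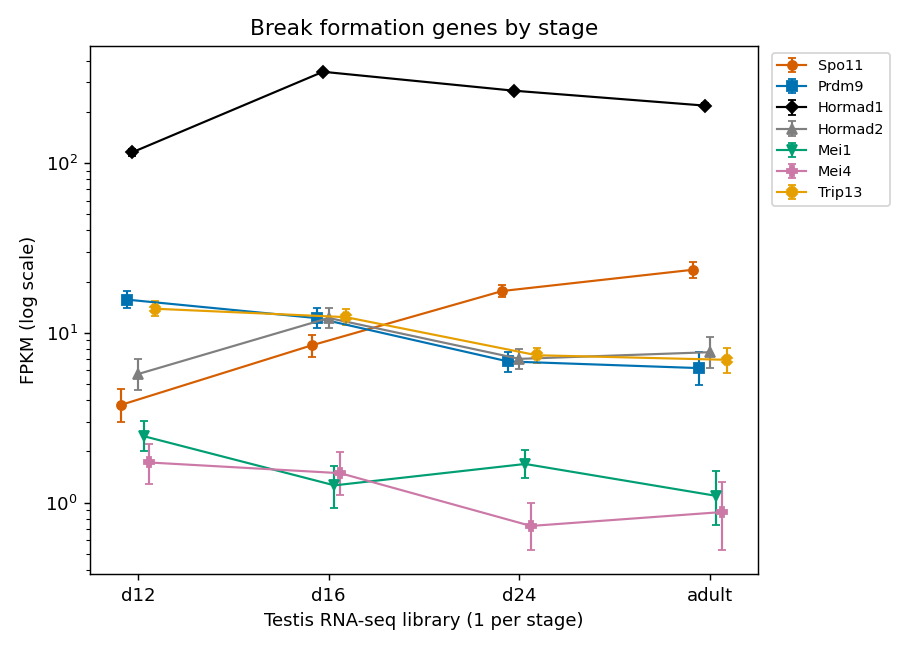
FPKM on a log scale (vertical axis) of the 7 break formation genes in the d12, d16, d24 and adult testis libraries, 1 per stage, with bars for 95% counting intervals. Hormad1 lies above 100 FPKM throughout, Spo11 climbs from 3.76 to 23.5 FPKM and crosses Prdm9 between d16 and d24, and Mei1 and Mei4 stay at the bottom.

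Spo11 encodes the topoisomerase-like protein that makes the breaks, and its deposited value was higher at each stage than at the one before. The last step, from d24 to adult testis, kept this direction in 5 of 6 scalings of the libraries and was -0.06 on the log2 scale with the same FPKM sum. The gene lies on chromosome 2 (GRCm38, 172977379 to 172993576, plus strand). It was read at 3.76 FPKM at d12 (2.96 to 4.69, 77 fragments), 8.42 at d16 (7.20 to 9.76), 17.6 at d24 (16.3 to 19.0) and 23.5 in adult testis (21.1 to 26.1, 343 fragments). None of the 4 intervals overlap. The d16 value was 2.24 times the d12 value (1.70 to 2.97) and the d24 value 2.09 times that of d16 (1.77 to 2.49). The adult value was 1.33 times that of d24 (1.17 to 1.53) and 6.25 times that of d12 (4.87 to 8.12), the widest range in the set. Spo11 was the only gene of the 7 whose highest value lay in adult testis. The summed pachytene, spermatid and Leydig cell markers were also highest there. Of these markers, Piwil1 (193.5 FPKM, adult 157.9) and Ccna1 (52.7, adult 50.9) were highest at d24, and Star (18.8, adult 15.1) at d12. In adult testis Ldhc gave 2769 FPKM of the pachytene sum of 5111. Which cells the Spo11 transcripts came from was not tested. The value counts all 4 curated transcripts of the gene together.

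Gm960, also called Top6bl, encodes the partner subunit of the SPO11 core complex, and its values ran the other way. They were 3.35 FPKM at d12 (2.71 to 4.10), 2.41 at d16 (1.87 to 3.05), 1.53 at d24 (1.21 to 1.91) and 1.24 in adult testis (0.802 to 1.83). Within a library the ratio of the genes does not depend on how the libraries were scaled. Spo11 over Gm960 was 1.12 in the d12 library and then 3.50 (d16), 11.5 (d24) and 18.9 (adult), a 16.9-fold span. The values of both genes were thus near equal only in the d12 library. The Spo11 value pools its 4 curated transcripts, and which of them changed was not tested.

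Mei1 and Mei4 encode proteins without which breaks do not form in mouse meiosis. Mei4 (chromosome 9, 81863670 to 82206007, plus strand) was read at 1.72 FPKM at d12 (1.29 to 2.22), 1.49 at d16 (1.11 to 1.98), 0.729 at d24 (0.527 to 0.989) and 0.879 in adult testis (0.524 to 1.33). The d24 value was 0.489 of the d16 value (0.315 to 0.752), which is -0.94 on the log2(FPKM + 0.1) scale and therefore just short of the 2-fold limit used here. Between d12 and d16 and between d24 and adult testis its intervals overlapped. The adult value rests on 20 fragments.

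Mei1 (chromosome 15, 82070074 to 82126817, plus strand) had a different order of levels. It was read at 2.46 FPKM at d12 (2.01 to 3.01), 1.26 at d16 (0.929 to 1.65), 1.69 at d24 (1.40 to 2.03) and 1.096 in adult testis (0.739 to 1.54). The d16 value was 0.513 of the d12 value (0.353 to 0.718). Only 4.9% of genes had a lower log2 change between these libraries, and no other gene of the set was as low. The d24 value was 1.34 times that of d16, with an interval of 0.966 to 1.92 that includes no change. With the longest curated transcript in place of the shortest, 123 rather than 99 fragments lie behind the d12 value (2.045 to 2.936). At that length all 4 libraries gave fragments within 0.00015 of a whole number. The intervals printed here for Mei1 use the shortest length and are therefore somewhat too wide.

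REC114 and IHO1 (listed as Ccdc36) join MEI4 on the chromosome axis. Rec114 was read at 8.68 FPKM at d12 (7.03 to 10.6), 6.07 at d16 (4.70 to 7.71), 2.84 at d24 (2.14 to 3.69) and 5.33 in adult testis (3.84 to 7.21), so that like Mei4 it was lowest at d24. Rec114 over Mei4 was 5.04, 4.08, 3.89 and 6.07 from the d12 to the adult library, and all 4 intervals overlap. Mei1 over Mei4 was 1.43, 0.848, 2.32 and 1.25 in the same libraries, and there the intervals did not all overlap. Ccdc36 was steadier, at 13.8, 11.3, 13.9 and 10.6 FPKM.

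Prdm9, the gene of the histone methyltransferase that sets recombination hotspots, lies on chromosome 17 (15543072 to 15564374, minus strand). Its level was 15.7 FPKM at d12 (13.9 to 17.6), 12.2 at d16 (10.6 to 13.9), 6.78 at d24 (5.91 to 7.75) and 6.19 in adult testis (4.91 to 7.70). The juvenile libraries at d12 and d16 lay above the later pair, whose intervals overlap. The d24 value was 0.556 of the d16 value (0.459 to 0.674), and the adult value 0.395 of the d12 value (0.304 to 0.507), a 2.53-fold fall. Curated transcripts of Prdm9 range from 1450 to 3475 bases, and the intervals use the shortest, which gives the fewest fragments. Of its 50-base stretches, 0.62% also occur in transcripts of other genes.

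Zcwpw1, whose product reads the histone marks that PRDM9 leaves, kept nearly the same ratio to Prdm9 in every library. Its levels were 89.0 FPKM in the d12 library and then 65.6 (d16), 34.2 (d24) and 30.1 (adult). Zcwpw1 over Prdm9 was 5.68 in the d12 library and then 5.39 (d16), 5.05 (d24) and 4.86 (adult), a 1.17-fold span within which all intervals overlap. By contrast, Spo11 over Prdm9 went from 0.240 at d12 (0.184 to 0.309) to 0.691 at d16 (0.561 to 0.845), 2.60 at d24 (2.22 to 3.04) and 3.79 in adult testis (2.97 to 4.91). Prdm9 was thus the higher of the pair at d12 and d16 and Spo11 the higher at d24 and in adult testis.

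Hormad1 and Hormad2 encode HORMA domain proteins of unsynapsed chromosome axes, and HORMAD1 also helps to recruit the break machinery. Hormad1 (chromosome 3, 95559677 to 95587863, plus strand) was read at 115.3 FPKM at d12 (110.4 to 120.3), 343.6 at d16 (335.1 to 352.2), 265.9 at d24 (260.3 to 271.7) and 217.3 in adult testis (209.4 to 225.6). All 4 intervals are apart, with d16 highest and d12 lowest. Among all genes of a library it ranked 336 in the d12 library, 88 in that of d16, 263 in that of d24 and 570 in the adult one. The d16 value was 2.98 times that of d12 (2.84 to 3.13), above the log2 change of 91.8% of genes. The d24 value was 0.774 of d16 (0.749 to 0.7999), and the adult value 0.817 of d24 (0.783 to 0.853). Of the 50-base stretches of Hormad1 transcripts, 22.9% (406 of 1773) also occur in the pseudogenes Gm15529 or Gm7167, which have no row of their own, so its level is uncertain to the extent that reads were shared with them.

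Hormad2 (chromosome 11, 4345801 to 4441198, minus strand) peaked in the same library at a far lower level. It was read at 5.71 FPKM at d12 (4.62 to 6.97), 12.2 at d16 (10.6 to 14.0), 7.02 at d24 (6.09 to 8.04) and 7.68 in adult testis (6.19 to 9.42). Only the d16 interval is apart from the other three. The d16 value was 2.14 times that of d12 (1.67 to 2.76) and the d24 value 0.575 of d16 (0.471 to 0.700). Hormad1 over Hormad2 was 20.2 at d12 (16.5 to 25.1), 28.1 at d16 (24.5 to 32.5), 37.9 at d24 (33.0 to 43.7) and 28.3 in adult testis (23.0 to 35.2).

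Trip13 encodes the AAA+ ATPase that removes HORMADs from synapsed axes, and it did not follow them. The gene (chromosome 13, 73912450 to 73937795, minus strand) was read at 13.8 FPKM at d12 (12.5 to 15.3), 12.4 at d16 (11.1 to 13.7), 7.37 at d24 (6.63 to 8.16) and 6.93 in adult testis (5.83 to 8.17). The values at d12 and d16 overlap, as do those at d24 and in adult testis, and the pairs are apart. The d24 value was 0.597 of d16 (0.514 to 0.693), and the adult value 0.5003 of d12 (0.410 to 0.608), which is -0.99 on the log2(FPKM + 0.1) scale. Hormad1 over Trip13 was 8.33 in the d12 library and 27.8 at d16, followed by 36.1 (d24) and 31.4 (adult), so most of its 4.33-fold span lay in the first interval.

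**Figure D2:**
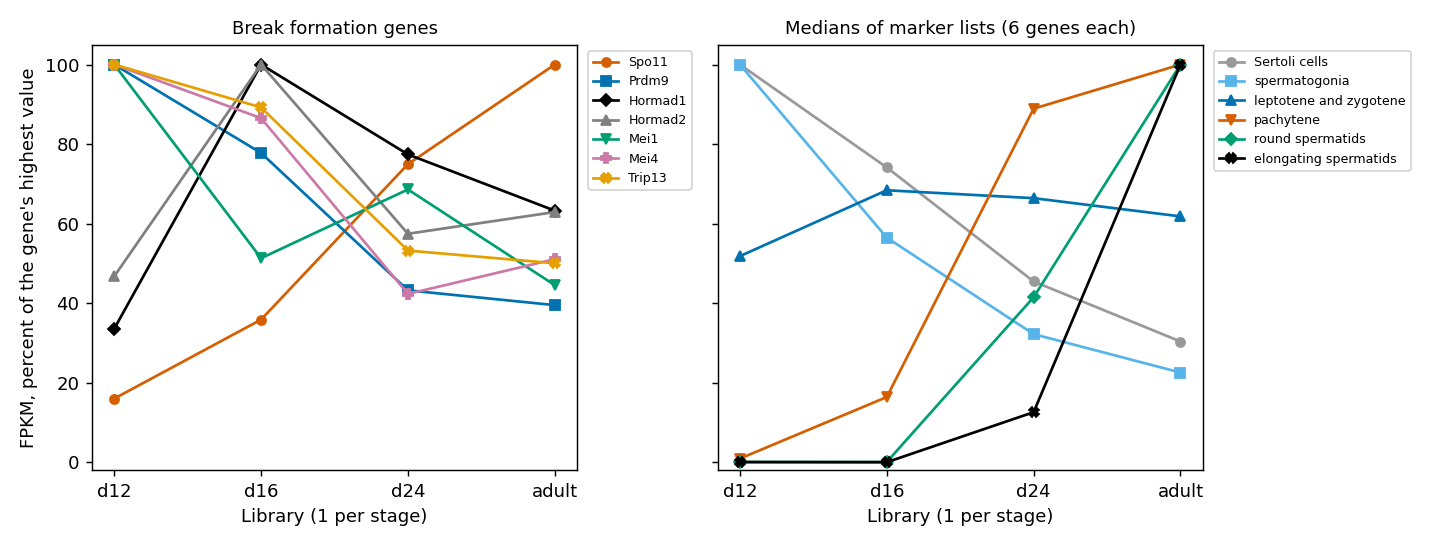
Each gene's FPKM as a percentage of its own highest value (left), and the median of the same percentage over 6 marker genes for each of 6 cell types (right), in the 4 testis libraries. Spo11 reaches its highest value in adult testis, Hormad1 and Hormad2 at d16 and the other 4 genes at d12. The medians of spermatogonia and Sertoli cell markers are highest at d12 and those of pachytene and spermatid markers in adult testis.

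Spo11, Prdm9, Hormad1, Mei4 and Trip13 are each overlapped by an annotated gene on the opposite strand that has no row in the table. The authors mapped the reads with the strand of the library set, and how much of such transcription entered the values was not tested.

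Ordered by level, Hormad1 came first in each library with an interval apart from the next gene. At d12 Prdm9 and Trip13 followed with overlapping intervals, then Hormad2, Spo11, Mei1 and Mei4, each with an interval that overlapped the next. By its longest transcript, however, the d12 interval of Mei1 (2.045 to 2.936) lay below that of Spo11 (2.964 to 4.694). At d16 Trip13, Hormad2 and Prdm9 could not be separated and Spo11 lay below them. At d24 and in adult testis Spo11 was next after Hormad1, above Trip13, Hormad2 and Prdm9, whose intervals again overlapped. Mei1 and Mei4 were lowest in all libraries, with intervals apart only at d24.

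Changes between libraries were then read against all genes on the log2(FPKM + 0.1) scale, which slightly understates the change of low genes. From d12 to d16, 3 of the 7 genes (Spo11, Hormad1 and Hormad2) were at least 2-fold higher and 0 at least 2-fold lower, where 12.6% of the 13901 genes were higher and 3.67% lower by that measure. The log2 changes were 1.58 for Hormad1, 1.14 for Spo11 and 1.08 for Hormad2, and -0.16 for Trip13, -0.20 for Mei4, -0.36 for Prdm9 and -0.91 for Mei1. The median of the 7 was -0.16, beside 0 over all genes. With libraries rescaled to the same FPKM sum or by their upper quartile, 2 genes were higher and 1, Mei1, was lower, where 11.4% and 11.2% of all genes were higher and 5.295% and 5.47% lower.

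From d16 to d24, 1 gene, Spo11, was at least 2-fold higher and 0 were lower, where 27.5% of all genes were higher and 8.45% lower. The log2 change was 1.05 for Spo11, 0.39 for Mei1, -0.37 for Hormad1, -0.74 for Trip13, -0.79 for Hormad2, -0.84 for Prdm9 and -0.94 for Mei4. The last 4 lie close above the limit of -1, and this count depends on the scale of the libraries. With the same FPKM sum or upper quartile in each library, 0 genes were higher and 4 (Prdm9, Hormad2, Mei4 and Trip13) were at least 2-fold lower. Of all genes, 19.2% and 23.2% were higher and 29.8% and 16.8% lower. The median of the set was -0.74 on the deposited scale, beside 0.13 over all genes.

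The last step, from d24 to adult testis, had 0 genes at least 2-fold higher and 0 lower, where 11.4% of all genes were higher and 2.2% lower. Log2 changes lay between -0.58 for Mei1 and 0.41 for Spo11. Across the whole period, from d12 to adult testis, 1 gene (Spo11, log2 change 2.61) was at least 2-fold higher and 2 (Prdm9 at -1.33 and Mei1 at -1.10) were lower, where 35.7% of all genes were higher and 23.1% lower. Hormad1 stood at 0.91, Hormad2 at 0.42, Mei4 at -0.90 and Trip13 at -0.99, and the median was -0.90 beside 0.20 over all genes. With the same FPKM sum or upper quartile in each library, 1 gene was higher and 4 were lower. Of all genes, 23.1% and 27.7% were higher and 49.7% and 37.8% lower. These comparisons share libraries with each other, so their values are not independent.

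**Figure D3:**
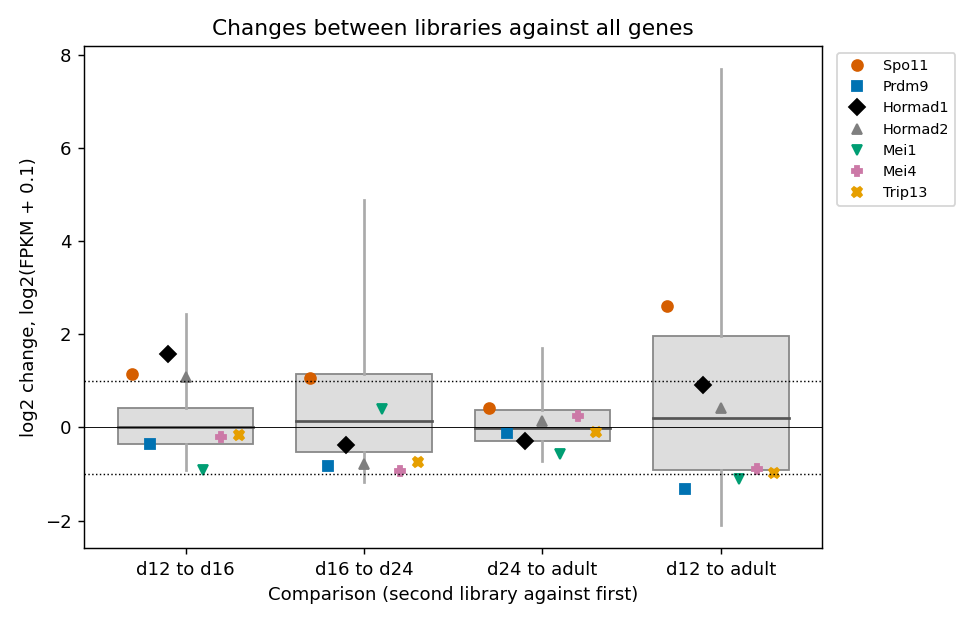
Log2 change of FPKM + 0.1 (vertical axis) between the libraries named on the horizontal axis, with a point for each break formation gene, a box for the quartiles and median and a line for the 5th to 95th percentile of 13901 genes, and dotted lines at 2-fold. Spo11, Hormad1 and Hormad2 lie above the upper dotted line from d12 to d16, and from d24 to adult testis all 7 genes lie between the dotted lines.

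Scaling matters here because the FPKM sums of the libraries differ, with 283580 (d12) and 307964 (d16) in the early libraries and 472726 (d24) and 659202 (adult) in the later ones. Directions were therefore read under 6 scalings: as deposited, the same FPKM sum, the upper quartile, Gapdh, Sertoli cell markers, and leptotene and zygotene markers. The Sertoli factor was the geometric mean of Sox9, Wt1, Cldn11 and Fshr, without Clu and Rhox5. Of the 6 Sertoli markers these last fell least, to 0.646 (Clu) and 0.823 (Rhox5) of the d12 value in adult testis. The leptotene and zygotene factor used Sycp3, Rec8, Smc1b, Meiob and Dmc1, without Stra8. From d12 to d16, Spo11, Hormad1 and Hormad2 were higher in 6 of 6 scalings, with log2 changes of 0.85 to 1.83 for Spo11, 1.28 to 2.27 for Hormad1 and 0.79 to 1.77 for Hormad2. Mei1 was lower in 6 of 6, from -1.18 to -0.26. Prdm9, Mei4 and Trip13 were lower in 4 of 6 and higher with division by Gapdh or by Sertoli cell markers. From d24 to adult testis none of the 7 genes had the same direction in all 6. From d12 to adult testis only Spo11 had the same direction in all 6, from 1.40 to 4.57. Prdm9, Mei1, Mei4 and Trip13 were lower in 4 of 6 and, divided by Gapdh or Sertoli cell markers, higher, while Hormad1 was higher in 5 of 6.

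**Figure D4:**
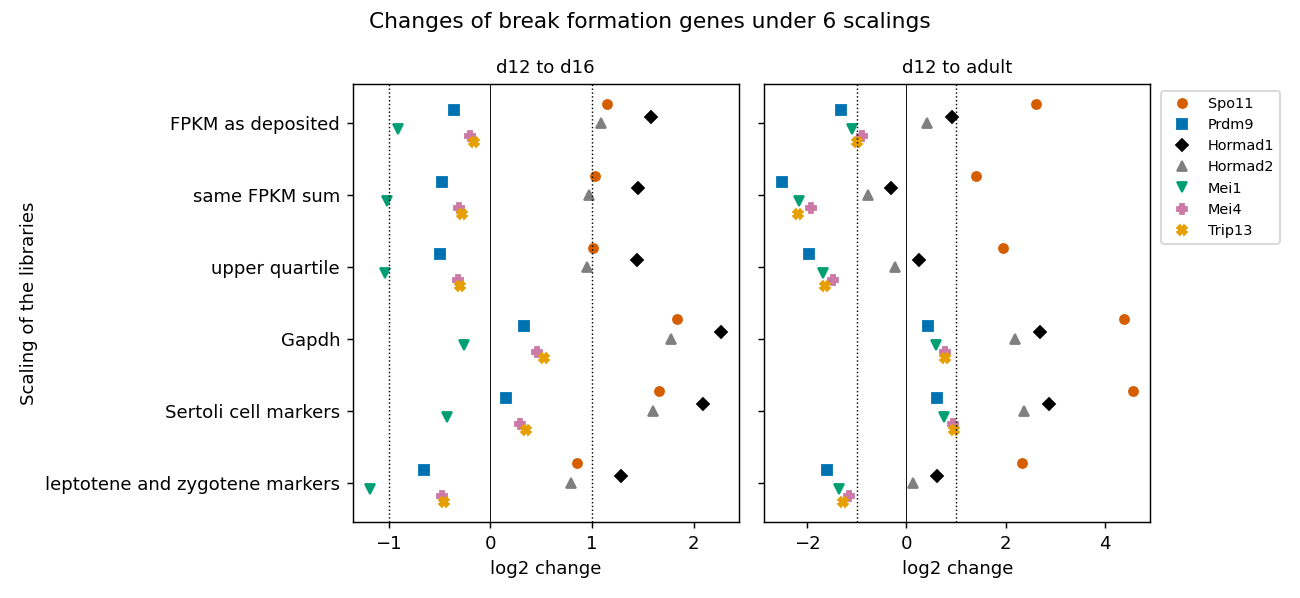
Log2 change (horizontal axis) of each break formation gene from d12 to d16 and from d12 to adult testis under 6 scalings of the libraries (rows), with dotted lines at 2-fold. Spo11 lies right of 0 in every row of both panels, and Mei1 left of 0 in every row of the d12 to d16 panel, whereas Prdm9, Mei4 and Trip13 change sides with the scaling.

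**Figure D5:**
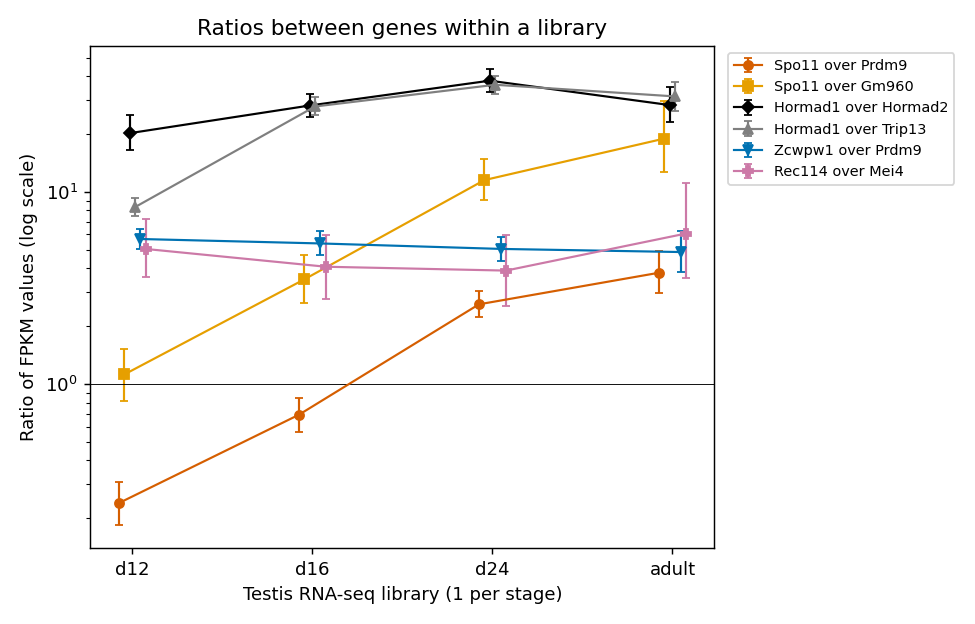
Ratio of FPKM values of gene pairs on a log scale (vertical axis) within each testis library, with 95% intervals for counting error, a measure that no scaling of the libraries can alter. Spo11 over Prdm9 and Spo11 over Gm960 climb through all 4 libraries, Hormad1 over Trip13 climbs mostly between d12 and d16, and Zcwpw1 over Prdm9 and Rec114 over Mei4 stay level within their intervals.

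Other genes of break formation and hotspot choice were read in the same way. Of 10 such genes listed, 8 have a row in the table: Rec114, Ccdc36, Gm960, Zcwpw1, Hells, Ewsr1, Cxxc1 and Atm. Ankrd31 and Zcwpw2 are not analysed here. None of the 8 was at least 2-fold higher in any of the 4 comparisons. From d16 to d24, 3 were lower (Rec114, Hells and Atm), and from d12 to adult testis 4 were lower (Gm960, Zcwpw1, Hells and Atm), where 8.45% and 23.1% of all genes were lower. Hells, a chromatin remodeler that works with PRDM9, was read at 143.5 FPKM at d12 and 33.7 in adult testis. Atm, the kinase that restrains further cuts near a break, had 26.96 FPKM in the d12 library and then 20.1 (d16), 7.26 (d24) and 6.17 (adult). Ewsr1 and Cxxc1, broadly expressed genes whose products bind PRDM9, moved little or upward, from 134.6 to 251.1 and from 21.7 to 24.6 FPKM. The medians of the 8 log2 changes were -0.43, -0.78, -0.22 and -1.03 for d12 to d16, d16 to d24, d24 to adult and d12 to adult.

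For each gene of the set, the 3 genes nearest in profile were found among 13900 others by the Euclidean distance of log2(FPKM + 0.1), centred on each gene's mean over the 4 libraries. With 4 points many genes lie close together, and the distances are a description only. Hormad2 had as its nearest gene Sycp3, which encodes a protein of the chromosome axis (distance 0.133), at 413.8, 795.3, 505.3 and 507.4 FPKM, followed by Gm4890 and by Rad54b, a recombination gene. Nearest to Hormad1 were 1700123I01Rik, C920006O11Rik and Cyp2r1, and nearest to Spo11 were Ift74, Grk4 and Acat3. Dtx4, Polr3f and Rab5a were nearest to Prdm9, and Csrp2bp, Msi1 and Erf to Mei1. Mei4 lay next to Smarcad1, Evpl and Car14, and Trip13 next to Zmynd11, 1600012H06Rik and Inpp5b. Within the set, Trip13 and Mei4 were closest (0.240), followed by Prdm9 with Trip13 (0.261) and Prdm9 with Mei4 (0.329). Hormad1 and Hormad2 were 0.646 apart. Hormad2 was number 160 of 13900 in distance from Hormad1, and Hormad1 number 484 in distance from Hormad2. Spo11 and Prdm9 were farthest apart (3.13).

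Upstream sequence was read from the RefSeq promoter windows of GRCm38.p6, in which 6 of the 7 genes have 8 entries and Spo11 has none. The 250 bases before each start were searched on both strands for CCTCAG (bound by STRA8, the gatekeeper of meiotic entry), CACGTG (E-box), TGCGCA (core of the NRF1 site), TGACGTCA (CRE) and CCGTTA (MYB). The Hormad1 window is shown whole because that gene was the highest and held the most matches, with the matches in capitals. It lies at chr3:95559427-95559676 on the plus strand and ends at the base before the start.
Hormad1: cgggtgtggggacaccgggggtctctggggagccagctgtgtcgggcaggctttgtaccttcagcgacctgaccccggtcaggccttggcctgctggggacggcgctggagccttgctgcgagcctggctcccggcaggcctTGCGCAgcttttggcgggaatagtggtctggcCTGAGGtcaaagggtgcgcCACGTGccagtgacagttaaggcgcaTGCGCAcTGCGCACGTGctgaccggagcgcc

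The Hormad1 window held 3 NRF1 cores, 2 E-boxes and 1 STRA8 motif, the last on the minus strand (CTGAGG). The E-box nearest the start shares bases with the NRF1 core beside it. Of the 32851 promoter windows of this length, 6.43% held an NRF1 core, 6.02% an E-box and 22.3% a STRA8 motif. CRE and MYB motifs, held by 1.55% and 2.18% of all windows, were in none of the 8 windows.

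The other Hormad1 window starts 2 bases downstream and held the same 6 matches. Among the remaining windows, 3 held 1 match each, shown with the bases around it and the match in capitals, on the strand of the gene. These are the STRA8 motif of Hormad2 at chr11:4441174-4441203 and of Prdm9 at chr17:15564376-15564405, and the NRF1 core of Trip13 at chr13:73937768-73937797.
Hormad2: gagcaaggcctgCTGAGGggccaaccttag
Prdm9: cttgttcccgccCCTCAGccagctgtctgt
Trip13: gtcagggtggggcggTGCGCAgcgcgcggc

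The windows of Mei1 and Mei4 and the window of the other Prdm9 start held no match. The Mei1 window belongs to an internal start of its shorter transcript. The annotated spans of Hormad2 and Trip13 begin upstream of the starts used (4441082 and 73937767), at 4441198 and 73937795. Their matches thus lie inside these spans. A STRA8 motif stands before the starts used for Hormad1 and Hormad2, highest at d16, and before 1 start of Prdm9, highest at d12. None was found before Mei1, Mei4 or Trip13, also highest at d12. A link between matches and the stage of the highest value was not tested. A match is a string of letters and not a binding site, and no binding data enter here.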

How the data were processed

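Total RNA of testis at d12, d16, d24 and adult stage, 1 library each, was sequenced as strand-specific read pairs. The authors aligned reads with TopHat2 2.1.0, which ran Bowtie 1.1.2, on the mouse build GRCm38 (mm10). They deposited FPKM values of 23983 genes from Cuffdiff (Cufflinks 2.2.1), run with its options for bias and for reads that map to several places. TopHat2 was set to report 1 alignment per read, so the second option had no alternative places to weigh. The scaling between libraries is not given in the sources used here. By the recovered fragments, counts were divided by 12523456 (d12), 12500687 (d16), 21970141 (d24) and 8917182 (adult). Fragments recovered on genes were 8910942, 9450765, 23690391 and 12054208 in the same order, so the divisors do not follow these depths. Samples were grouped by the stage in their labels.

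The 7 genes and the gene lists were chosen with earlier results of these data known. Named genes are the 7, the genes of the lists of break formation, HORMA domain and meiotic entry genes, the marker genes, the 3 nearest in profile to each of the 7, and Gapdh. Whole fragments were recovered from 14603 genes with 1 curated transcript. Between 91.6% and 92.3% of their values of up to 20 fragments were within 0.05 of a whole number. With 1 library per stage no test was made. Changes were counted past 2-fold on log2(FPKM + 0.1) among 13901 genes averaging 1 FPKM or more. Alternatives were pseudocounts, the filter, 5 scalings and folds of 1.5 and 4. The steps were tested on simulated data and run in python 3.11.15 (pandas 2.3.3, numpy 2.4.6, scipy 1.17.1, matplotlib 3.10.9).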

Additional observations from a re-analysis of the deposited data

How the results depend on the processing

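Of 100 alternative values for the counts and medians of the set, 59 stayed within the limits set and 41 moved. Neither leaving out the filter on low values, which all 7 genes pass, nor the transcript length used for the fragments can move a value of the set, and both are left out of these numbers. With a pseudocount of 1 FPKM, 1 gene was at least 2-fold higher from d12 to d16, 0 from d16 to d24, and 1 lower from d12 to adult. In the same order, 8.77%, 24.9% and 18.5% of all genes were. With no pseudocount, 1 gene was lower from d16 to d24, where 9.55% of the genes above 0 in both libraries were. With the same FPKM sum, 1 gene was lower from d12 to d16, 0 higher and 4 lower from d16 to d24, and 4 lower from d12 to adult, with medians of -1.34 (d16 to d24), -0.55 (d24 to adult) and -1.93 (d12 to adult). In the order of these counts, 5.295%, 19.2%, 29.8% and 49.7% of all genes were. By the upper quartile these counts were 1, 0, 4 and 4, with medians of -1.02 (d16 to d24) and -1.47 (d12 to adult). The shares of all genes were then 5.47%, 23.2%, 16.8% and 37.8%. Divided by Gapdh, 2 genes were higher from d16 to d24, and 3 higher and 0 lower from d12 to adult, with medians of 0.53 (d12 to d16), 0.41 (d16 to d24) and 0.78 (d12 to adult), where 60.3% of all genes were higher from d16 to d24 and 71.1% from d12 to adult. Divided by Sertoli cell markers, 2 were higher from d16 to d24, 1 from d24 to adult, and 3 higher and 0 lower from d12 to adult, with medians of 0.35, 0.0127, 0.59 and 0.95 in the order of the comparisons, where 46%, 28% and 75.1% of all genes were higher in the last 3 comparisons. Divided by leptotene and zygotene markers, 1 gene was higher and 1 lower from d12 to d16, and 4 lower from d12 to adult, where 9.98%, 8.62% and 29.5% of all genes were. At 1.5-fold, 1 gene was lower from d12 to d16, 4 lower from d16 to d24, and 2 higher and 4 lower from d12 to adult, where 13.4%, 22.4%, 42.5% and 32.6% of all genes were. At 4-fold, 0 were higher from d12 to d16 and from d16 to d24, and 0 lower from d12 to adult, where 6.35%, 15.7% and 6.09% of all genes were. From d12 to adult, Prdm9 turned to 0.44 with Gapdh and 0.61 with Sertoli cell markers, and Mei1 to 0.60 and 0.77, and no other called gene reversed under these alternatives. These scalings move all genes together: the median of all genes from d12 to adult was 0.20 as deposited, -0.99 with the same FPKM sum, -0.45 by the upper quartile, 1.97 with Gapdh, 2.14 with Sertoli cell markers and -0.09 with leptotene and zygotene markers. Of 224 values for single genes, 141 stayed within the limits set, 79 moved and 4 reversed. No paired analysis was possible because each stage has 1 library, and for the same reason no replicate could be left out. Depth limits Mei4 and Mei1 most, with 20 and 31 fragments in adult testis by the shortest transcript and 38 and 39 by the longest.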

Other observations

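HORMAD1 and HORMAD2 belong to a family of HORMA domain proteins with other uses, and TRIP13 acts on several of them with an adaptor. In the same libraries (1 per stage, FPKM as deposited) these relatives took other courses. Mad2l2, whose product takes part in DNA repair, was read at 3.46 FPKM in the d12 library and then 9.15 (d16), 41.1 (d24) and 33.9 (adult). Mad2l1bp, the gene of the TRIP13 adaptor, was read at 1.13, 1.26, 3.33 and 4.14 FPKM, whereas Trip13 itself was lower in the later libraries. Mad2l1, a spindle checkpoint gene, went from 16.6 FPKM at d12 to 7.22 in adult testis. The autophagy genes Atg13 and Atg101 were read at 3.55 and 20.3 FPKM at d12 and at 6.03 and 6.38 in adult testis. Of these 5 genes, 2 were at least 2-fold higher and 2 at least 2-fold lower in adult testis than at d12, where 35.7% of all genes were higher and 23.1% lower.

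Regulators of meiotic entry and of pachytene transcription also parted. Stra8 was read at 86.4 FPKM at d12 (82.2 to 90.8), 49.2 and 19.0 in the d16 and d24 libraries and 12.3 in adult testis (10.5 to 14.3). Mybl1, a transcription factor of pachytene cells, was read at 17.4, 37.6, 54.2 and 52.5 FPKM, and Tcfl5 at 17.2, 63.3, 193.7 and 237.1 FPKM. Of the 3 genes measured, Mybl1 and Tcfl5 were at least 2-fold higher and Stra8 at least 2-fold lower in adult testis than at d12, beside the same shares of all genes. Gm4969 (Meiosin) is not analysed here.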
